A study of Mus musculus with 74 samples.

Results

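The binding sites of Gm13247, a mouse KRAB zinc finger protein (KRAB-ZFP), were described from 1 ChIP-seq library. Its members were the rows of the deposited peak table that carry the name Gm13247, 277 of the 53011 peaks of the 67 KRAB-ZFPs whose names matched a label. The cells were F9 EC cells, a mouse embryonal carcinoma line that resembles the early embryo's pluripotent cells, which overexpressed Gm13247 with 3 copies of the FLAG epitope at its N terminus from a stably integrated transgene. Chromatin was precipitated with a FLAG antibody (F1804), and the authors retained peaks found both over F9 input DNA and over a FLAG control ChIP. The 17 other FLAG samples (20451 peaks) shared the cell line, the epitope, the antibody, the controls and the aligner, and each overexpressed another KRAB-ZFP. The labels give no age, strain or further treatment. Since each KRAB-ZFP had 1 library, no value of a KRAB-ZFP had a replicate error, and the intervals below are 95% Wilson intervals, which cover counting error only. The identity of the cells could not be checked by marker genes, because the table holds peaks and no expression.

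KRAB-ZFPs are DNA-binding proteins in which an array of zinc fingers reads the DNA and a KRAB domain recruits the corepressor KAP1 (TRIM28), which in turn brings in histone methyltransferases that silence chromatin. Many of them bind transposable elements, and their genes lie in clusters that differ between mammals. The gene of Gm13247 (ENSMUSG00000056300.7) lies in such a cluster on chromosome 4 (chr4:145658647-145696012, mm9, minus strand). The table held 0 Gm13247 peaks in its own gene and 2 within 2 Mb of it: 1 in an intron of Gm13225, itself a KRAB-ZFP of the cluster, and 1 in an intron shared by Gm16889 and Gm17317. The first had 16 tags and a fold of 14.23, and the second had 20 tags and a fold of 12.49.

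A family of 18 Gm13247 windows shared a sequence, and 17 of them were also bound by Zfp808 (values further on). A stretch of about 80 bases around the median summit is printed for 10 members, chosen after seeing the sequences so as to include those that differ in length, with the majority base of all 18, because it shows how alike the shared sites are. Capitals mark bases that equal the majority base in columns where at least 15 of the 18 members hold it.
majority base of the aligned members: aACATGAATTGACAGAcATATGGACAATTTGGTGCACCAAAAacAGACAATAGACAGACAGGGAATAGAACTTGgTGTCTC
near Gm16355 (chr2:174981419-174981499, mm9, + strand): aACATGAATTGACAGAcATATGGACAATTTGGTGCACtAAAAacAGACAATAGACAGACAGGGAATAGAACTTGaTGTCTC
near Gm10479 (chr12:20260795-20260880, mm9, + strand): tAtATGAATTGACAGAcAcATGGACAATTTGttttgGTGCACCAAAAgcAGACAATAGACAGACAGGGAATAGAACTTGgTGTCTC
near Cyp3a57 (chr5:146085653-146085733, mm9, - strand): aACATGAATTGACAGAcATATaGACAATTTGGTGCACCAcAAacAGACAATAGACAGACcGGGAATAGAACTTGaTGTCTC
near Zfp352 (chr4:89941067-89941147, mm9, - strand): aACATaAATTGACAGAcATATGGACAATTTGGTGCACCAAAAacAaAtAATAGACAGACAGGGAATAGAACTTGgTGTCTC
in an intron of Gm16889 and Gm17317 (chr4:146560030-146560110, mm9, + strand): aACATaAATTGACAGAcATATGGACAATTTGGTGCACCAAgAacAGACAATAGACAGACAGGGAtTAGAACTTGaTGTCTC
near Slc39a10 (chr1:47126694-47126774, mm9, + strand): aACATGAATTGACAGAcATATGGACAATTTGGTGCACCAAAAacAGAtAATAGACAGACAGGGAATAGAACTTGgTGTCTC
near Lama4 (chr10:38550196-38550276, mm9, + strand): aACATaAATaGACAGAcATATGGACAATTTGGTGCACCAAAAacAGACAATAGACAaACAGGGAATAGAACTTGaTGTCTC
near Pgr (chr9:8781288-8781373, mm9, - strand): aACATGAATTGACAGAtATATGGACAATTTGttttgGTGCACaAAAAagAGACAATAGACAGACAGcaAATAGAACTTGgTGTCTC
near Vangl1 (chr3:102041582-102041657, mm9, + strand): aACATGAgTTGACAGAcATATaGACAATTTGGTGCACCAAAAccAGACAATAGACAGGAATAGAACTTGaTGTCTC
near AC122520.2 (chr6:133145997-133146073, mm9, + strand): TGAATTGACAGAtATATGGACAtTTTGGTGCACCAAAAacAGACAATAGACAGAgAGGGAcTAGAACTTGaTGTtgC
Of the 16 members for which the stretch was extracted, 5 had a stretch of 86 bases, with 5 bases added in the middle; among those printed they are the ones near Gm10479 and Pgr. The stretch near Vangl1 was the shortest, with 76 bases, and that near AC122520.2 had 77. The member near Ly6e is not among the 16, because too few of its bases fell in the stretch. The member near Vmn1r238 was left out by choice.

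The single window with the highest fold had no exact second copy in the genome, and is printed whole in lower case, with no part marked.
peak with the highest fold (chr5:134179644-134179843, mm9, + strand): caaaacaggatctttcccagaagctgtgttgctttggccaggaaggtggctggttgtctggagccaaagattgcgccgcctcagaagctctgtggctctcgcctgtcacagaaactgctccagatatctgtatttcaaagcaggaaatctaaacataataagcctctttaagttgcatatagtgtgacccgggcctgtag

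Windows in the exons of 2 zinc finger genes aligned to each other. They are printed over their aligned part, where 101 of 154 aligned columns (65.6%) were identical, and capitals mark the identical bases.
Zfp316 (chr5:144015371-144015523, mm9, + strand): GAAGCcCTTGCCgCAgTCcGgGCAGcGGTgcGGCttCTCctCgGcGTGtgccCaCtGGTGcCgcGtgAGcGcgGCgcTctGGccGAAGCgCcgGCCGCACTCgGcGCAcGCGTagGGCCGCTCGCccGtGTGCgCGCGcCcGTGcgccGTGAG
Zfp777 (chr6:47974763-47974915, mm9, + strand): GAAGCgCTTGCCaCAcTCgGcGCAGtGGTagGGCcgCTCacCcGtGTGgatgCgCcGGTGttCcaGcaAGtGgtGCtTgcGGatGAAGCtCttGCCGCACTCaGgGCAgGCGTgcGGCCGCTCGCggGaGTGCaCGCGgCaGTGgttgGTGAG
Both stretches are rich in G and C, and both peaks were shared with 2610305D13Rik and Gm13152.

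Gm13247 gave a weak peak set. Its sample and that of Gm13212 were the 2 among the 18 FLAG samples whose labels give the looser threshold of p under 1e-5, and both had an enrichment threshold of 10. Tags are the reads counted in a peak, and the fold is their enrichment over the local background. The 277 peaks held from 8 to 80 tags with a median of 11, and their fold ran from 10.02 to 40.74 with a median of 12.63. At most 15 tags lay in 219 peaks, and 31 peaks had 20 tags or more. The score, a log-scaled MACS p-value (10 times the negative log10), ran from 50.07 to 436.6 with a median of 65.5. The authors' false discovery rate was 0% in 25 peaks and over 5% in 233, with 7.9% as its median and 10.45% as its maximum. The peaks as called were 81 to 434 bp wide, with a median of 150 bp.

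At the stricter setting that most FLAG samples carried, few of these peaks remained. With p under 1e-10 and a fold over 10, 31 Gm13247 peaks were left, and with a fold over 20, 11. Gm13212, called at the same loose setting, had 191 peaks, a median of 10 tags and 0 peaks at either setting. In the 16 FLAG samples called at 1e-10 the median tags per peak ran from 25 to 97. The median of 11 tags for Gm13247 lay below that of 16 of the 17 other samples (exact permutation test over the 18 samples, two-sided, p = 0.111, adjusted over 12 measures p = 0.667), and its median width of 150 bp also below 16 of 17 (exact permutation p = 0.167, adjusted p = 0.667). Both ranks compare samples called at unlike thresholds, since 16 of the 18 were called at p under 1e-10. With 1 sample against 17 the smallest p this test allows is 0.0556, so none of the 12 measures could pass 0.05.

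**Figure D1:**
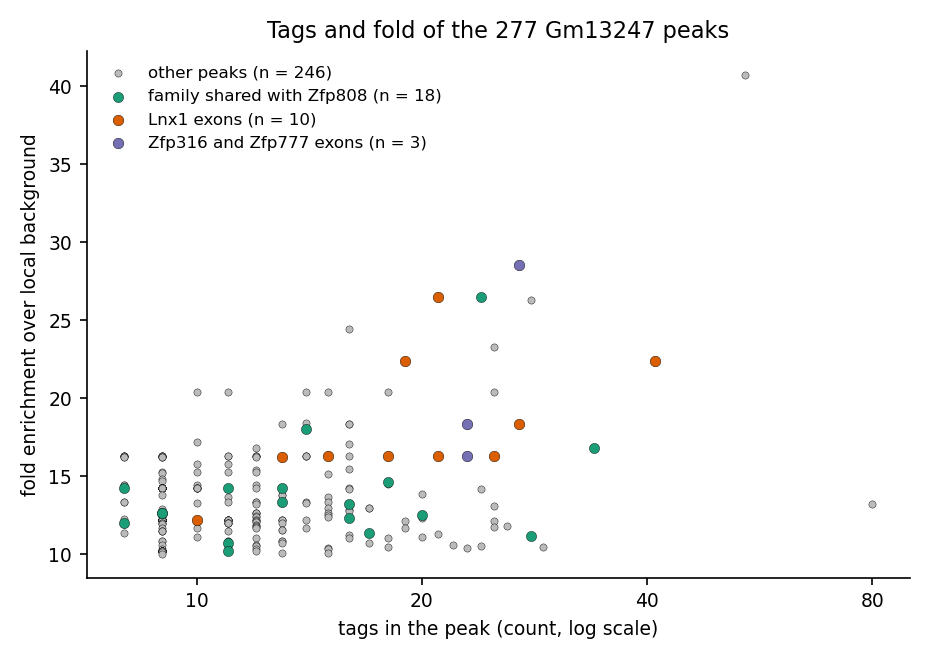
Each point is 1 of the 277 Gm13247 peaks, with its tags (count, log scale) on the horizontal axis and its fold over the local background on the vertical axis. Most peaks lie below 20 tags and a fold of 20, the Lnx1 and zinc finger gene exons lie above most others, and 1 peak stands at a fold of 40.74 and 1 at 80 tags.

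The strongest peak by fold lay between genes at chr5:134179644-134179843. It had 54 tags, a fold of 40.74 and a score of 436.6, and the nearest transcript start, that of Gm10051, was 228751 bp away. No other KRAB-ZFP of the table had a peak there. The peak with the most tags, 80, had a fold of 13.2 and lay in an intron of D6Wsu116e (chr6:116192166-116192365), where 9 other KRAB-ZFPs were also called, more than at any other Gm13247 peak. The first was thus called in Gm13247 alone, and the second in many samples.

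Among the 20 peaks with the highest fold, where ties were ordered by score, 4 lay in Lnx1 exons and 2 in Zfp316 exons. Of the others, the peak near Ly6e, which encodes a surface protein, had 24 tags and a fold of 26.48. That near Snapc3, which encodes a subunit of the complex that activates small nuclear RNA genes, had 16 tags and a fold of 24.45. The peak near Cnn3, which encodes an actin-binding calponin, had 25 tags and a fold of 23.31. Folds of 20.37 were found in an intron of Inpp5f, a phosphoinositide phosphatase, next to the start of Mlxip, a glucose-responsive transcription factor, near Pdcd1, the immune checkpoint receptor PD-1, near the olfactory receptor gene Olfr212, and near Gm16631 and Gm13676. Lower in this group were a peak near Cenpw, a centromere protein (fold 18.42), 1 in an intron of Shank3, a scaffold of synapses (fold 18.34), and 1 near SNORA17 (fold 18.34); the next peak, near Gm13809, had the same fold of 18.34. Of the 3 peaks with a score over 200, 1 is that near Gm10051, 1 that in D6Wsu116e and 1 that in exon 5 of Lnx1.

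Exons of Lnx1 held the densest group of Gm13247 peaks. Lnx1 (ENSMUSG00000029228.9, chr5:74988471-75098936, mm9, minus strand) encodes a ubiquitin ligase with PDZ domains that binds the cell fate regulator Numb. All 10 summits in this gene lay in exons, although exons made up 3988 of its 110466 bp (3.61%). The annotation has 2 transcripts of 10 exons, Lnx1-003 and Lnx1-004, and in each of them every exon held exactly 1 summit. Numbered along Lnx1-004, the fold was 16.3 in exons 1, 2, 3 and 4, 22.41 in exon 5, 12.22 in exon 6, 16.24 in exon 7, 18.34 in exon 8, 22.41 in exon 9 and 26.48 in exon 10. The tags were 25, 21, 15, 18, 41, 10, 13, 27, 19 and 21 in the same order of exons. Every exon was thus above the median fold of the peak set but exon 6, and exon 5, at 372 bp the longest of the 10, held the most tags.

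The peaks as called followed the exons closely. Together they spanned 2352 bp, of which 2082 bp (88.5%) lay inside the exons of Lnx1-004. In 7 of the 10 the whole exon was covered; the exceptions were exon 3, where the 140 bp called lay entirely inside the 153 bp exon, exon 6, with 124 of 135 bp, and exon 10, with 162 of 307 bp. All 10 windows were single-copy sequence in mm9. The false discovery rate was 0% in 8 of the 10 peaks, against 25 peaks of the 277. The median over these 10 peaks was 20 tags and a fold of 16.3. The table held 1 other summit in the gene, from Gm13225, and it lay outside the exons. Whether the reads came from chromosomal Lnx1 or from another copy of its spliced sequence cannot be told apart in a peak table.

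**Figure D2:**
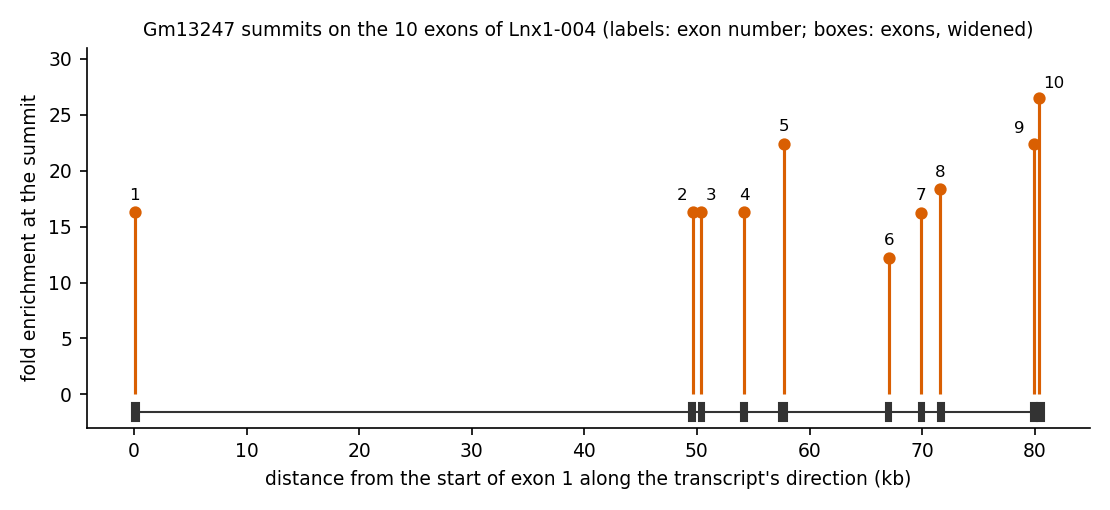
The 10 Gm13247 summits in Lnx1 are drawn by their distance from the start of exon 1 (kb, horizontal) and their fold over the local background (vertical), with the 10 exons of Lnx1-004 as boxes, widened to be visible. Every exon carries 1 summit, with folds from 12.22 in exon 6 to 26.48 in exon 10, and no summit lies between exons.

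A pattern of this kind was rare in the table. Over the 67 KRAB-ZFPs, 267 pairs of a KRAB-ZFP and a gene had at least 3 summits inside the gene, and in 3 of these all summits lay in exons of that gene. They were Gm13247 in Lnx1 (10 of 10), Zkscan17 in the gene Zkscan17 (6 of 6, median fold 31.49) and Gm13152 in Cacna1a (3 of 3, median fold 55.95). In the Zkscan17 sample, the exons belong to the gene of the protein that was itself overexpressed there. In the Gm13247 sample they do not. This screen was made after the Lnx1 values were seen.

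The Lnx1 peaks changed how the whole set reads. Coding exons held 14 of the 277 summits (5.05%, interval 3.03% to 8.3%), against 1.35% of windows on an even grid over the genome, and 9 of these 14 were in Lnx1. Without Lnx1 it was 5 of 267 (1.87%, 0.802% to 4.31%). In the 17 other FLAG samples the coding-exon share ran from 0% to 10.7% with a median of 2.06%, and 4 exceeded the 5.05% of Gm13247. Summits within 10 kb of another Gm13247 summit numbered 11 of 277 (3.97%), of which 2 were in Zfp316 and the others in Lnx1. Without Lnx1 it was 2 of 267 (0.749%). The clustered share of the 17 other FLAG samples ran from 0% to 63.2% with a median of 3.97%, and 9 exceeded that of all Gm13247 peaks. On chromosome 5 lay 25 peaks (9.03%), and 15 (5.62%) without Lnx1, next to 5.75% of the assembled chromosomes' length.

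The remaining exon peaks included a small group in zinc finger genes. Zfp316 had 2 coding-exon peaks, 1 with 27 tags and a fold of 28.52, the second highest of all, and 1 with 23 tags and a fold of 18.34. The first had a GC content of 76.5% and 37 CpG dinucleotides in 200 bp, the highest value of the set for both. Zfp777 had 1 coding-exon peak with 23 tags and a fold of 16.3. The stretches that align between these windows are those printed above. In each of these genes 1 summit was shared with 2610305D13Rik and Gm13152, which are other KRAB-ZFPs of the FLAG samples; the third calls there came from Gm21082 in Zfp316 and Zfp58 in Zfp777. The other 2 coding-exon peaks lay in Trp53bp1, which encodes the DNA damage factor 53BP1 (9 tags, fold 16.24), and Adra1d, an adrenergic receptor gene (9 tags, fold 14.26). Summits in untranslated exons outside Lnx1 were found in Obfc2a, Gm13288, Ubb, Zbtb45 and Stx12, with folds from 10.83 to 16.3.

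Most Gm13247 peaks lay away from exons. Between genes lay 153 summits (55.2%, 49.3% to 61%), against 58.9% on the grid, and in introns 101 (36.5%, 31% to 42.3%), against 37.8%. Within 1 kb of a transcript start lay 41 summits (14.8%, 11.1% to 19.5%), against 3.96% on the grid. Among the 17 other FLAG samples this share ran from 2.49% to 50% with a median of 11.3%, and 7 of them were higher than Gm13247, so its position was inside their range (exact permutation test over the 18 samples, p = 0.944, adjusted p = 1). Gm13212 had 6.28%.

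The peaks near transcript starts were richer in CpG than the rest. Their median GC content was 58.5% with a median of 12 CpG dinucleotides per window, and that of the 236 other peaks 45% with 2. Their median fold was 12.63 in both groups. Outside the genes named so far, peaks of high fold near a start included 1 in an intron of Dpm1, 336 bp upstream of the start of the neighbouring gene Adnp (14 tags, fold 16.3), and those of Krba1 (9 tags, fold 16.3), and Aaas, a nuclear pore protein (9 tags, fold 14.81). Further peaks near a start were next to Gm14310 (18 tags, fold 14.62), which belongs to the family of 18, and Tram1 (26 tags, fold 11.79), a locus shared with 5 other KRAB-ZFPs. Of the 41 peaks near a start, 16 were shared with another KRAB-ZFP, and of the 236 others, 63.

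**Figure D3:**
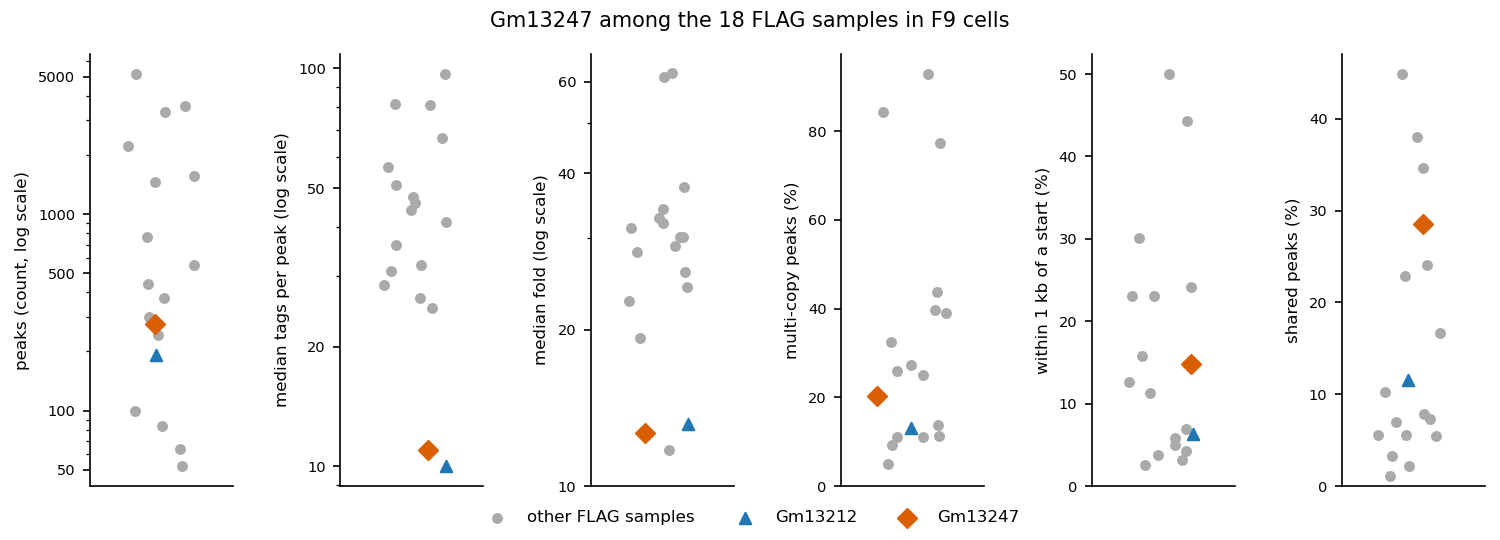
Each panel shows 1 measure, with 1 point per FLAG sample: the number of peaks, the median tags per peak and the median fold (log scales), and the percentages of multi-copy peaks, of peaks within 1 kb of a transcript start and of shared peaks. Gm13247 (diamond) and Gm13212 (triangle) lie at 11 and 10 median tags, below the other samples, while the share of shared Gm13247 peaks, 28.5%, is exceeded by 3 samples.

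Exactly repeated sequence was about as common in Gm13247 windows as on the grid. Copies that have diverged can be missed by this measure, and their share on the grid was not computed. A window was called multi-copy where the median of its 24-base words occurred at least 2 times in mm9, and 56 windows (20.2%, 15.9% to 25.3%) were, against 18.9% on the grid. In the other FLAG samples the share ran from 5% to 93%, with a median of 26%. Windows with at least 100 copies numbered 11 (3.97%, 2.23% to 6.97%), against 8.65% on the grid. The median GC content was 46.5% and 73 windows (26.4%) held at least 5 CpG dinucleotides, against 6.96% on the grid. Among the pooled peaks of the other FLAG samples this CpG share was higher, at 40.6%, and 29.7% without Gm13152. The random placement of reads with several equal positions can lower peaks in such repeats, and its part in these shares was not tested.

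Alignment between the 277 windows (BLASTN, E-value of at most 1e-5) joined 60 of them (21.7%, 17.2% to 26.9%) into 4 families of at least 3. The largest had 29 members and short alignments, with a median of 60 bp at 85.7% identity. Pooled over its members, the whole windows matched 256755 places in the genome over at least 100 bp at 80% identity. Which members and which part of their windows gave these places was not resolved, so the count does not describe the short stretch they share. The members of this largest family had folds from 10.19 to 18.34, and 14 lay in introns, among them those of Shank3 and Cdk17. The family of 18 had a median alignment of 151 bp at 88.3% identity and 969 such places. The third family had 10 members with 12 to 810 exact copies, a median of 10 CpG dinucleotides and 3976 places. Its members included windows near Gm13809 (fold 18.34, 546 copies), Chrm3 (fold 16.3) and Jmy (fold 11.89), and 4 of the 10 were shared with Gm14419, which was assayed in ES cells. The fourth comprised the 3 windows in Zfp316 and Zfp777.

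The family of 18 was shared almost entirely with Zfp808. Of its members 15 lay between genes and 3 in introns, on 11 chromosomes, with a median GC content of 37.3% and 1 to 94 exact copies. Tags ran from 8 to 34 and the fold from 10.19 to 26.48, with a median of 12.91. Zfp808, a KRAB-ZFP assayed in F9 cells with an HA tag and so with another antibody and another control, had a peak at 17 of the 18. The member without one, near Ly6e, had the highest Gm13247 fold of the family, 26.48. At the 17 shared loci the Gm13247 and Zfp808 summits lay 4 to 75 bp apart. One of them is the peak in Gm16889 and Gm17317 in the Gm13247 gene's own cluster.

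Most Zfp808 peaks lay in this family. Of its 544 peaks, 483 (88.8%) matched the family, and 17 of the 483 (3.52%, 2.21% to 5.56%) were shared with Gm13247. The Zfp808 fold was 51.82 to 105.2 at the 17 shared loci, with a median of 82.99 and a median of 557 tags. At the 466 family loci not shared with Gm13247 it ran from 20.24 to 103.9, with a median of 57.31 and 326 tags. The Zfp808 fold was above that second median at 16 of the 17 shared loci, the exception being the locus in Gm16889 and Gm17317 with 51.82, and the ranges of the shared and other loci overlap. At each shared locus the deposited Zfp808 fold was 4.15 to 8.7 times the Gm13247 fold; the libraries were called against different controls, so these values stand side by side and are not a measure of relative binding.

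The summits of the 2 proteins fell in the same part of the aligned family. On the 633 aligned positions the 18 Gm13247 summits had a median position of 319, and 15 of them lay within 50 positions of it. The 17 Zfp808 summits had a median position of 291, and ran from 254 to 332. Zkscan17 had 4 summits at these loci, spread from position 249 to 409 with a median of 298.5. Of these, 1 lay within 50 positions of 319. Gm13139, a KRAB-ZFP with 123 of its 169 peaks (72.8%) in the family, had 5 summits at these loci, from position 112 to 161. Its summits did not overlap in position with those of Gm13247, the lowest of which was at 177. The family was built from the Gm13247 windows, so their own share in it, 18 of 277, is set by that choice; of the 19680 grid windows 3 matched it.

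**Figure D4:**
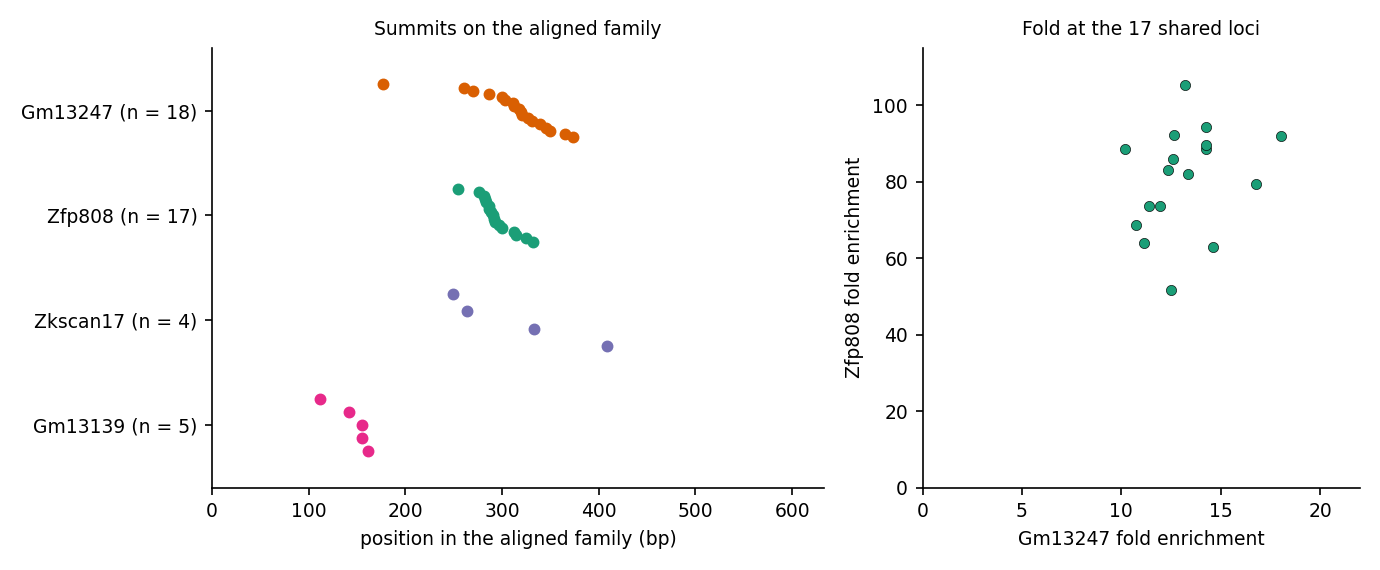
On the left, each point is a summit by its position (bp) along the aligned family of 18 Gm13247 windows, for Gm13247, Zfp808, Zkscan17 and Gm13139. On the right, the fold of Gm13247 is set against the fold of Zfp808 at the 17 shared loci, where Zfp808 lies between 51.82 and 105.2 and Gm13247 between 10.19 and 18.04.

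Beyond this family, Gm13247 shared single loci with many proteins. A peak counted as shared where its 200 bp window overlapped that of another KRAB-ZFP by at least 25%. Of the 277 peaks 79 were shared (28.5%, 23.5% to 34.1%), against a background of 10.0% of the 20451 peaks of the other 17 FLAG samples. Per sample that share ran from 1.09% to 44.9% with a median of 7.81%, and Zfp810, Zfp882 and Zfp534 were higher than Gm13247 (exact permutation test over the 18 samples, p = 0.333, adjusted p = 0.8). Outside the family of 18 it was 62 of 259 (23.9%). Of the shared peaks 49 had 1 partner, 14 had 2 and 16 had 3 or more. Gm13251, from the same FLAG set, and Zfp808 each shared 18 peaks, or 6.5% of the Gm13247 peaks, and 17 of those shared with Zfp808 were in the family. The shared loci were 0.545% of the 3300 Gm13251 peaks and 3.31% of the 544 Zfp808 peaks. Next came Gm13152 with 11, and Zfp882 and Gm14419 with 6 each. The shared peaks had a median of 13 tags and a fold of 13.19, and the 198 others 11 tags and a fold of 12.36.

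The 16 loci with 3 or more partners were mostly unlike each other. The locus near Cnn3 was shared with 6 KRAB-ZFPs, all assayed with an HA tag: Gm13235, Zfp457, Zfp759, Zfp874b, Zfp935 and Zfp938. A window 232461 bp from SNORA17 on chromosome 3 was shared with 5, with a Gm13247 fold of 10.19. Gm13251 and Zfp457 were both partners near Pde6h, the gene of a cone photoreceptor phosphodiesterase subunit (fold 16.35), and near SNORA40 (fold 12.37), each time with Gm13225. The locus near Mansc1 (21 tags, fold 11.3) was shared with Gm14326, Gm14391 and Gm14393. Others lay near Gm16631, Mlxip, Cyp3a57, Tram1 and a second SNORA17 annotation on chromosome 18, in introns of C1s and D6Wsu116e, and in exons of Zfp316 and Zfp777. Those at D6Wsu116e, Cyp3a57 and C1s were multi-copy sequence.

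No 8-base word marked the peaks at large. Words of 8 bases were ranked in the 148 peaks on odd-numbered chromosomes against windows 1 kb to either side and then counted in the 129 others. The first-ranked word, ccaggctc, was in 2 of these 129 windows (1.55%, 0.426% to 5.48%) and in 1.94% of their flanks. In the other 17 FLAG samples the first-ranked word was found in 1.96% to 81.2% of the held-out windows, and the lower end was again Gm13212. The second, attccctg, was in 9 of the 129 (6.98%) and in 1.55% of the flanks, and of the 17 peaks that hold it in all, 9 belong to the family of 18. With the grid as background the first word was agacaata, in 17 peaks, 14 of them in that family; it is part of the stretch printed above.

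A run of at least 10 A on either strand was common in the windows. It was found in 63 of the 277 (22.7%, 18.2% to 28%), in 5.78% of the flanking windows and in 4.25% of the grid. Gm13212 was close with 38 of 191 windows (19.9%, 14.8% to 26.1%), and over the other 17 FLAG samples the share ran from 0% to 70.5%. None of the 18 windows of the Zfp808 family held one, while 12 of the 29 in the largest family did. The runs lay at a median of 65 bp from the summit, with 17 of the 63 within 50 bp. Peaks with a run had a median of 10 tags and a fold of 13.37, and those without 12 tags and a fold of 12.37.

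Each of the 4 gene lists held 0 or 1 gene with a Gm13247 peak. A gene was counted where a summit lay in it or within 10 kb, which held for 0.724% of all 37273 annotated genes. Of 25 genes of the KAP1 silencing machinery, 30 imprinted genes and 24 germline genes, 0 were counted, which allows shares of up to 13.3%, 11.4% and 13.8% (upper Wilson limits). Of 25 pluripotency genes 1 was counted, Prdm14, a regulator of germ cell fate, with a peak 2061 bp upstream of its start (15 tags, fold 10.33, false discovery rate 8.31%). Genes named Zfp and a number, a group chosen after the values were seen, had 6 of 370 counted (1.62%, 0.745% to 3.49%): Zfp12, Zfp316, Zfp507, Zfp592, Zfp777 and Zfp866. Of the killer cell lectin-like receptor genes (Klr), also chosen after the values were seen, 2 of 31 were counted (6.45%, 1.79% to 20.7%), Klrb1 and Klrb1a. Of 1249 olfactory receptor genes 3 were counted (0.24%, 0.0817% to 0.704%), of 433 vomeronasal receptor genes 0 (up to 0.879%) and of 37 protocadherin genes 1, Pcdh15 (2.7%, 0.479% to 13.8%). Neighbouring genes can be counted from 1 summit, so the genes of a group are not independent. The intervals of the 4 lists all include the share of all genes.

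The peaks were spread over 20 chromosomes. Chromosome 1 held 26, chromosomes 2 and 5 held 25 each and chromosome 10 held 23 (8.3%, 5.6% to 12.2%, with 4.9% of the length), a share above that of each of the 17 other FLAG samples, whose highest was 7.2%. Chromosomes 14 and 16 held 2 peaks each (0.722%, 0.198% to 2.59%), a share below that of each of the other samples, whose lowest were 1.56% and 1.2%. Chromosome X held 5 peaks and chromosome Y 0. These chromosomes were picked from 21 after their values were seen, and no test was made.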

How the data were processed

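ChIP-seq of 1 FLAG-tagged KRAB-ZFP per sample in F9 EC cells was analysed from the deposited peak table. Per the labels and methods, the authors aligned reads to mm9 with Bowtie (-5 3 --best), with a multi-mapping read kept at 1 place, called peaks per sample with MACS 1.4.2, and set each peak to 200 bp around its summit. The authors deposited, per peak, the tags as a raw count, a score (10 times the negative log10 of the p-value), a fold enrichment (a ratio) and a false discovery rate in percent. Positions are in base pairs. The depth of the libraries is unknown, since the table holds no control reads and no totals, so a missing peak does not show absent binding. The 3625 tags in Gm13247 peaks are not a depth. Of 68 names in the table, 1, with 244 rows, matched no label and was not used.

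Computed here, with Python 3.11.15 (pandas 2.3.3, numpy 2.4.6, scipy 1.17.1), were the positions against gencode vM1 genes in NCBIM37 (the build mm9), copy numbers of 24-base words in that genome, an even grid of 19680 windows every 130000 bp, families by BLASTN 2.17.0, an alignment of 300 bp to either side of each summit by MAFFT 7.526, overlaps of at least 25% (summits at most 150 bp apart) and ranked words. The steps for families, ranked words and copy numbers were tested on simulated data with planted families, words and copies. The other steps were not tested in this way. Samples were grouped by their labels. Measures per sample were compared by two-sided exact permutation tests over the 18 FLAG samples with Benjamini-Hochberg adjustment over 12 measures; shares have 95% Wilson intervals. Named are the genes at the 20 peaks of highest fold, up to 15 genes with a summit within 1 kb of a start or in a coding exon, genes of the fixed lists with a summit, and genes at loci shared with 3 or more other KRAB-ZFPs; any other gene was chosen after seeing its values. Some genes that this rule names are not reported here. The members and lists were chosen with earlier results of these data known. The alternatives concerned thresholds, copy number, distances, overlap, families, word length and the leaving out of Lnx1 or of the family shared with Zfp808.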

Additional observations from a re-analysis of the deposited data

How the results depend on the processing

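Over 11 results, 34 alternatives were computed, of which 16 left the value inside its 95% interval or a count within 1.5 times, and 18 moved it. The peak number fell from 277 to 31 with p under 1e-10 and a fold over 10, and to 11 with a fold over 20. The multi-copy share was 11.9% at 10 copies, 3.97% at 100 copies and 9.09% (1 of 11) at a fold over 20. The share within 1 kb of a start was 33.9% at 5 kb and 22.6% at p under 1e-10, where the intergenic share was 48.4% and the shared peaks 38.7%. Sharing was 14.1% with FLAG samples only. The share of held-out windows with the first-ranked word was 6.2% for 6-mers, 11.6% for 10-mers, 6.98% against the grid and 0% (of 96) in single-copy peaks. The clustered share was 7.22% at 100 kb. Without the Lnx1 peaks, an alternative chosen after seeing the data, the clustered share was 0.749%, the coding exon share 1.87% and chromosome 5 held 5.62%. Other alternatives chosen after seeing the data (without Zfp808, without its family, without all families, runs of 12 A, single-copy windows) left values inside their intervals. The cause of a moved value was not tested where the alternative itself does not redefine it. No paired analysis was possible because each KRAB-ZFP has 1 sample. With a median of 11 tags per peak, weak sites and background cannot be told apart.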

Other observations

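The deposited folds of Gm13247 were concentrated on a few values. Among 111 distinct folds, 37 peaks had a fold of 12.22 and 28 a fold of 14.26. A step of 2.037 was picked from these same folds as the one with the most whole multiples within 0.006. With it, 113 folds were whole multiples, from 5 to 20 times the step. Peaks that tie in fold therefore have no order among themselves.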
